A study of Mus musculus with 2 samples.

Results

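The genes described here are 31 genes of sterol and fatty acid synthesis and sterol efflux, taken by name from the 17232 genes of the table, where each of them was found. They comprise 7 enzymes of the mevalonate and isoprenoid steps, 11 enzymes from squalene to cholesterol, 5 regulators and carriers of sterols, 6 genes of fatty acid synthesis and desaturation, and the 2 efflux pumps *Abca1* and *Abcg1*. Cells make cholesterol from acetyl-CoA through mevalonate, isoprenoid units and squalene. When membranes of the endoplasmic reticulum are short of sterol, the escort protein SCAP carries SREBP2 (encoded by *Srebf2*) to the Golgi for cleavage, and the freed fragment turns on the enzymes of the pathway as a group; the INSIG proteins hold SCAP back when sterol is plentiful. When sterol accumulates, oxysterols activate the LXR receptors, which turn on the pumps ABCA1 and ABCG1, and macrophages that take up lipid and dying cells are known for this arm.

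The data are single-cell RNA sequencing of immune cells from tumors of B16-OVA, mouse melanoma cells engineered to make ovalbumin as a model antigen. Live CD45.2+ cells were sorted from *Maoa* WT mice and from *Maoa* KO mice at a single time after tumor challenge, and each genotype is represented by 1 library made from 10 combined tumors. The KO mice carry the 129S-*Maoa* tm1Shih/J allele, a hypomorphic mutation of the whole animal that the study backcrossed to C57BL/6J and treats as a knockout in immune cells, so host cells other than leukocytes carried it too, while the melanoma cells did not; the mice were adults. A single library per genotype allows no test between genotypes, and every interval printed (95%) covers counting error only.

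Depth is counted in UMIs (unique molecular identifiers, each standing for 1 RNA molecule). There were 2392 cells with 28801253 UMIs in the WT-labelled library, a median of 9887.5 per cell, and 2630 cells with 23702018 UMIs, a median of 6945.5, in the KO-labelled library. *Maoa* itself had 7 UMIs in the WT-labelled library and 15 in the KO-labelled library, a log2 ratio of 1.33 (−0.00 to 2.92), so it did not bear out the labels, and each library is called by what it is labelled as. Of the barcode sequences, 13 occurred in both libraries. Levels are UMIs per 1000000 UMIs of the same cells (CPM). Since 3′ UMIs count molecules and not fragments, levels of different genes were compared without a correction for length. The cells formed 15 clusters, 14 of which took a class from marker genes: T cells, NK cells, TAM/Mono cells (tumor-associated macrophages and monocytes), DCs, pDCs (plasmacytoid DCs) and B cells. The summed markers of each class were highest in the class they name, in both libraries. Cluster 8, of 116 and 238 cells, had T cell markers but was led by the NK marker *Klra7*, and stayed unnamed. No gene described here took part in the clustering.

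Upstream sequences were available from RefSeq for 24 of the 31 genes. They are shown because most of the enzymes ran together across clusters, and because the proteins that read these motifs are the textbook regulators of the pathway. The windows ran from 250 bases before to 50 bases after each transcript start (GRCm38.p6), and 4 motifs were searched on both strands: the sterol regulatory element core TCACNCCAC, the NF-Y box CCAAT, the E-box CACGTG and the GC box GGGCGG. In the lines that follow, capitals mark matches to the first 2 of these motifs, on either strand, and every stretch lies upstream of the annotated exons of its gene.
*Hmgcs1*, chr13:119690173-119690252, plus strand: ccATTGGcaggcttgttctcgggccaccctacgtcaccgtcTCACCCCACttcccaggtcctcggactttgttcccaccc
*Mvd*, chr8:122443423-122443502, minus strand: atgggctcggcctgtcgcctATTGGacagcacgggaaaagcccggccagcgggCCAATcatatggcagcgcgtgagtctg
*Mvk*, chr5:114444189-114444268, plus strand: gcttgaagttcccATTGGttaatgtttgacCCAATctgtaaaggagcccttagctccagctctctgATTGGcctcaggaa
*Srebf2*, chr15:82147089-82147168, plus strand: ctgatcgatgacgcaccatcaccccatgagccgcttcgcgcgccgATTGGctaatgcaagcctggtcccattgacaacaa
*Insig1*, chr5:28071162-28071230, plus strand: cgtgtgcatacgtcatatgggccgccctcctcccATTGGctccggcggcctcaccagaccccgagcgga
*Insig2*, chr1:121332590-121332669, minus strand: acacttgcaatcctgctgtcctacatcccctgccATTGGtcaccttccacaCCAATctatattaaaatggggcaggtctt
These stretches were chosen for the gene with the sterol element, 2 further mevalonate enzymes, the regulator *Srebf2* and both INSIG genes, whose levels had their peaks in different clusters.

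The NF-Y box was present in 20 of the 24 genes with a window and in 14 of the 15 enzymes among them, against 41.9% of the 12167 genes of the table that have a window. Counted by window, it was in 67.7% of the 31 windows of these genes and in 37.4% of all 32851 windows. *Acat2* was the enzyme without one. *Mvk* had 5 boxes, the most of any gene here, and its stretch above holds 3 of them. The exact core of the sterol regulatory element was found in *Hmgcs1* alone, against 1.54% of all genes with a window. The E-box was in 5 of the 24 genes (11% of all genes) and the GC box in 21 (62.5%). These counts describe the letters of the windows and say nothing of whether a factor binds there. *Fdps*, *Fdft1*, *Sqle*, *Stard4*, *Scd2*, *Fads1* and *Abcg1* had no window.

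**Figure D1:**
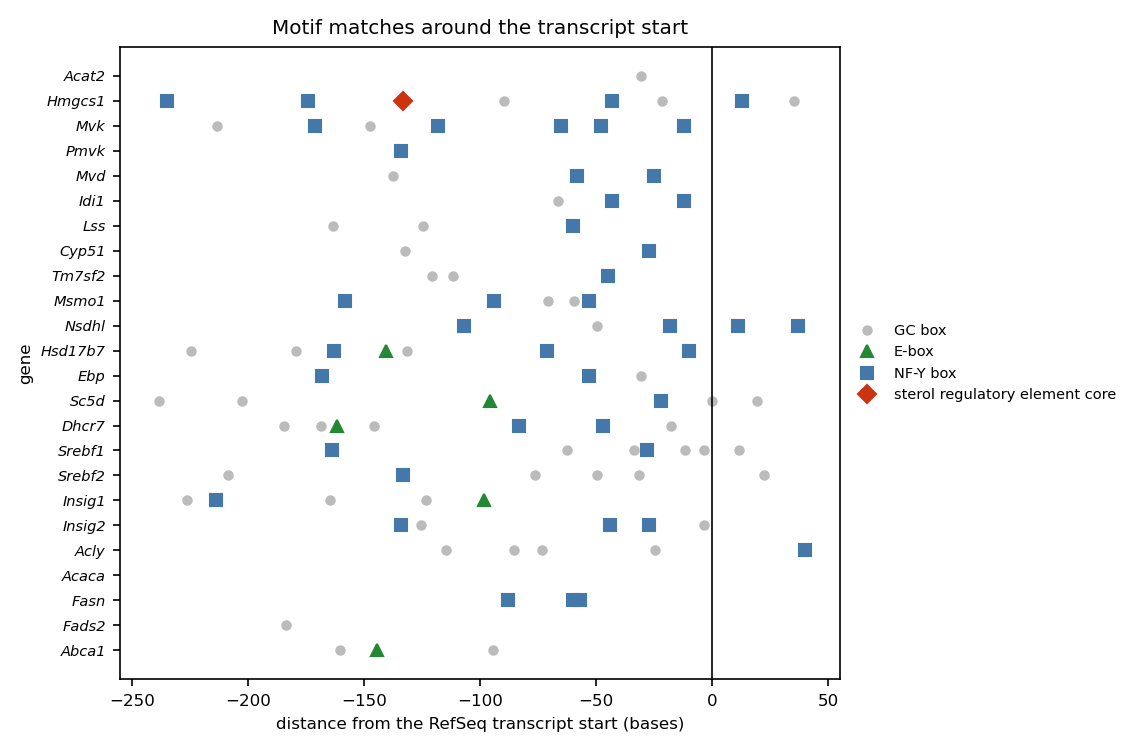
Positions of 4 sequence motifs (symbols) relative to the RefSeq transcript start (x axis, bases; 0 is the start) in the 24 genes with an upstream window (y axis). NF-Y boxes were found in 20 of the 24 genes and the single core of the sterol regulatory element lay in *Hmgcs1*.

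The sterol enzymes were most abundant in pDCs, followed by DCs, in both libraries. Summed over the 18 enzymes of both groups, pDCs had 3196 CPM (3017 to 3383) in the WT-labelled library and 3065 (2914 to 3222) in the KO-labelled library, from 48 and 70 cells. DCs had 1967 CPM (1908 to 2028) and 1591 (1554 to 1628). TAM/Mono cells had 732 and 825 CPM, T cells 706 and 588, and NK cells 458 and 342. B cells, of which there were 7 and 24, had 376 CPM (206 to 631) and 523 (395 to 680). In both libraries pDCs came first, DCs second and NK cells below T cells and TAM/Mono cells. TAM/Mono cells and T cells differed little in the WT-labelled library, with intervals of 716 to 747 and 691 to 721. The interval of B cells overlapped that of NK cells in the WT-labelled library and that of T cells in the KO-labelled library. Cells of these clusters also differed in depth. Per cell, the median was 19.5 and 19 enzyme UMIs in pDCs, 28 and 19 in the deeper DCs of cluster 7, 38.5 and 22 in the DCs of cluster 13, and 1 in cluster 1 (T cells led by *Dapl1*, *Lef1* and *Tcf7*) in both libraries.

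Against all other cells, the summed enzymes were higher in pDCs by a log2 ratio of 2.01 (1.93 to 2.10) in the WT-labelled library and 1.86 (1.78 to 1.93) in the KO-labelled library. Among the enzymes, 17 of 18 were more than 1.5-fold higher in pDCs in both libraries, where 17.4% of the 10487 genes with at least 100 UMIs passed the same fold. The exception was *Ebp*, an isomerase of the late sterol steps with a near-even level in most clusters. Of the 30 genes described here with at least 100 UMIs, 23 passed it, the regulators *Srebf1*, *Srebf2* and *Insig1* among them. *Insig2*, *Abca1* and *Abcg1* were lower in pDCs past the fold in both libraries, as were 19.4% of all genes. In pDCs they had only 4 and 5, 0 and 2, and 3 and 3 UMIs. They reached the minimum through the other cells, so this is a description. DCs against the remaining cells other than pDCs gave log2 ratios of 1.49 (1.45 to 1.54) and 1.25 (1.21 to 1.29). There, 14 of the 18 enzymes and 17 of the 30 genes passed 1.5-fold in both libraries, beside 7.82% of all genes. The 4 enzymes that did not pass, *Hsd17b7*, *Ebp*, *Sc5d* and *Dhcr7*, act in the later steps of the pathway. *Insig2*, *Abca1* and *Abcg1* were again lower past the fold, beside 13.6% of all genes. They had 30 and 59, 2 and 4, and 23 and 50 UMIs in DCs, and again reached the minimum through the other cells.

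**Figure D2:**
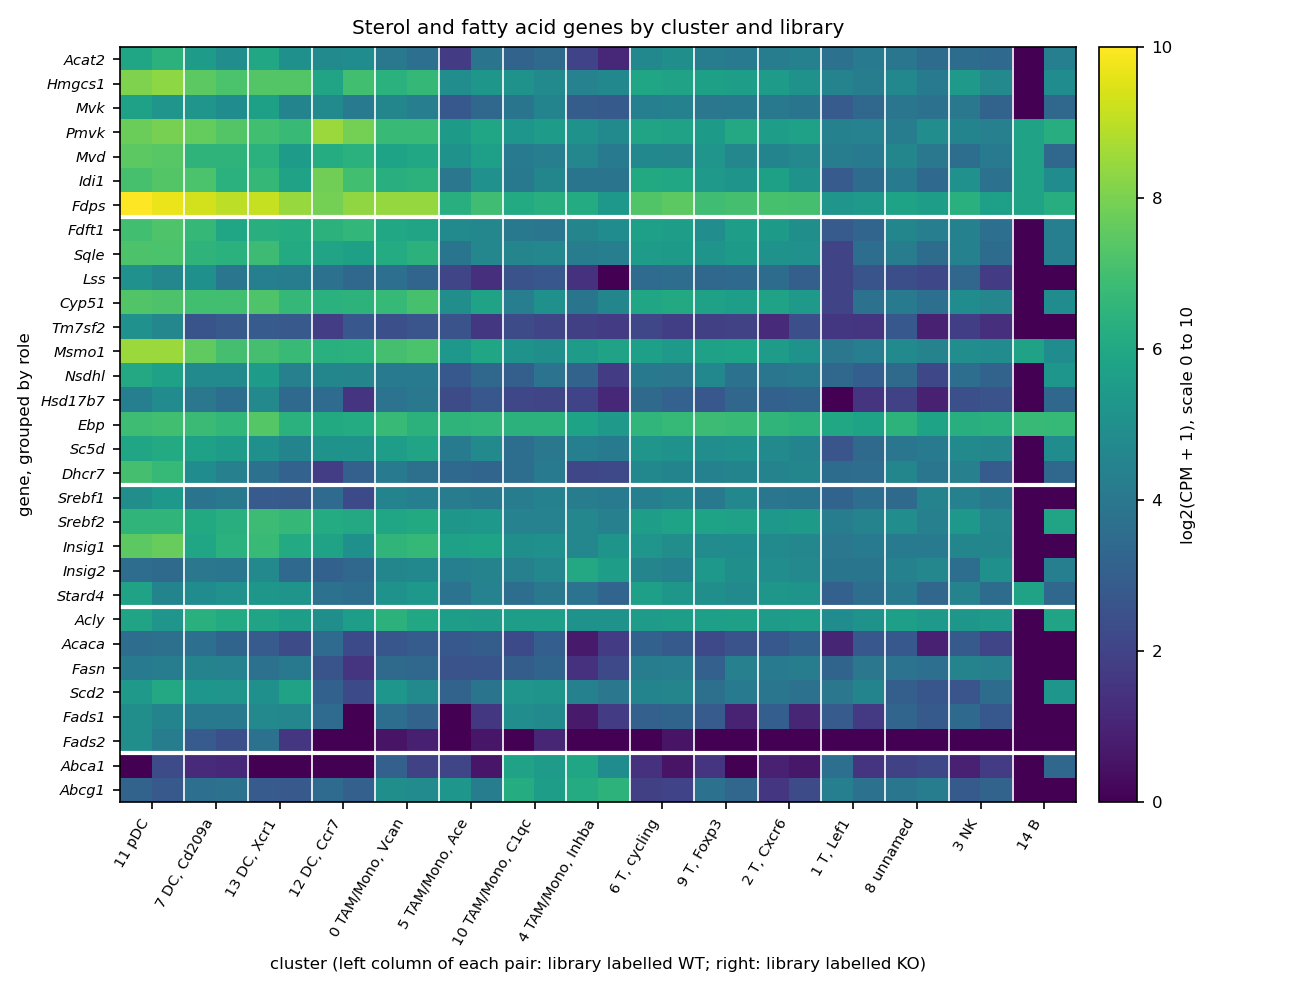
Level of each gene (rows, grouped by role: mevalonate enzymes, squalene to cholesterol enzymes, regulators, fatty acid genes, efflux pumps) as log2(CPM + 1) in 15 clusters, each a pair of columns with the WT-labelled library on the left and KO on the right, named by class and a marker gene. The enzyme rows are brightest in the pDC, DC and *Vcan* TAM/Mono columns, and the 2 efflux rows in the *C1qc* and *Inhba* TAM/Mono columns.

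Gene by gene, the peak was nearly always in the same place. Among the 13 clusters of at least 50 cells, 16 of the 18 enzymes had their highest level in pDCs in the WT-labelled library and 18 of 18 in the KO-labelled library. The share of all genes that peak in pDCs was not computed, so these counts are a description. *Pmvk* and *Idi1* peaked in cluster 12, the DCs led by *Fscn1*, *Ccl22* and *Ccr7*, in the WT-labelled library, at 359 and 228 CPM, against 213 and 137 CPM in pDCs. The lowest levels lay mostly in cluster 1, cluster 4 (TAM/Mono cells led by *Inhba* and *Cxcl3*) and cluster 8, which held the minimum of 8, 3 and 1 enzymes in the WT-labelled library and of 3, 7 and 7 in the KO-labelled library. Cluster 5, also of TAM/Mono cells, held the minimum of 3 enzymes in the WT-labelled library and of 0 in the KO-labelled library.

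Among the mevalonate enzymes, *Fdps* was by far the most abundant. It makes farnesyl pyrophosphate, the branch point to sterols, ubiquinone and prenylated proteins. In the WT-labelled library its level was 1048 CPM in pDCs, 638 in cluster 7 (DCs led by *Cd209a* and *Mgl2*), 344 in cluster 0 (TAM/Mono cells led by *Dmkn*, *Vcan* and *Gbp2*) and 35.7 in cluster 1. In the KO-labelled library these levels were 836, 517, 342 and 41.6 CPM, so the order was the same. *Fdps* (chromosome 3, 89093588 to 89101959, GRCm38, minus strand) overlaps *Gm43738* on the same strand, and how reads of the overlap were counted is not given in the sources used here. *Hmgcs1* (chromosome 13, 119690379 to 119708260), the synthase that makes HMG-CoA from acetoacetyl-CoA, had 267 and 311 CPM in pDCs, 179 and 141 in cluster 7, 83.7 and 101 in cluster 0, and 21 and 17.4 in cluster 1. The 2 kinases and the decarboxylase that turn mevalonate into isopentenyl pyrophosphate were less even. *Pmvk* had 213 and 248 CPM in pDCs, *Mvd* 178 and 168, and *Mvk* only 51.2 and 35.7. *Idi1*, which isomerises isopentenyl pyrophosphate, had 137 and 160 CPM in pDCs and 6.29 and 10.5 in cluster 1. *Acat2*, the thiolase that makes acetoacetyl-CoA, had 59.3 and 85.2 CPM in pDCs and 3.02 and 1.22 in cluster 4.

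From squalene to cholesterol, *Msmo1*, a demethylase of the sterol ring, led with 358 and 363 CPM in pDCs against 14.7 and 18.3 in cluster 1. *Sqle*, the oxygenase that commits squalene to sterols, had 148 and 141 CPM in pDCs and 3.15 and 11.4 in cluster 1, the first of these from 3 UMIs. *Cyp51*, the lanosterol demethylase, had 154 and 147 CPM in pDCs and 3.15 and 12.8 in cluster 1. *Fdft1*, the squalene synthase, had 124 and 151 CPM in pDCs, and *Dhcr7*, a reductase of the late steps, had 132 and 103 CPM there but 28.2 and 19.7 in cluster 7. *Ebp* was the flattest of the enzymes, from 119 and 123 CPM in pDCs to 55 and 40.4 in cluster 4. *Sc5d*, *Nsdhl*, *Lss*, *Tm7sf2* and *Hsd17b7* had between 18.9 and 67.4 CPM in pDCs. *Fdft1* and *Cyp51* overlap *Ctsb* and *Akap9* on the opposite strand, and *Tm7sf2* overlaps *Vps51* on its own strand. *Ebp* and *Nsdhl* lie on chromosome X, as *Maoa* does.

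**Figure D3:**
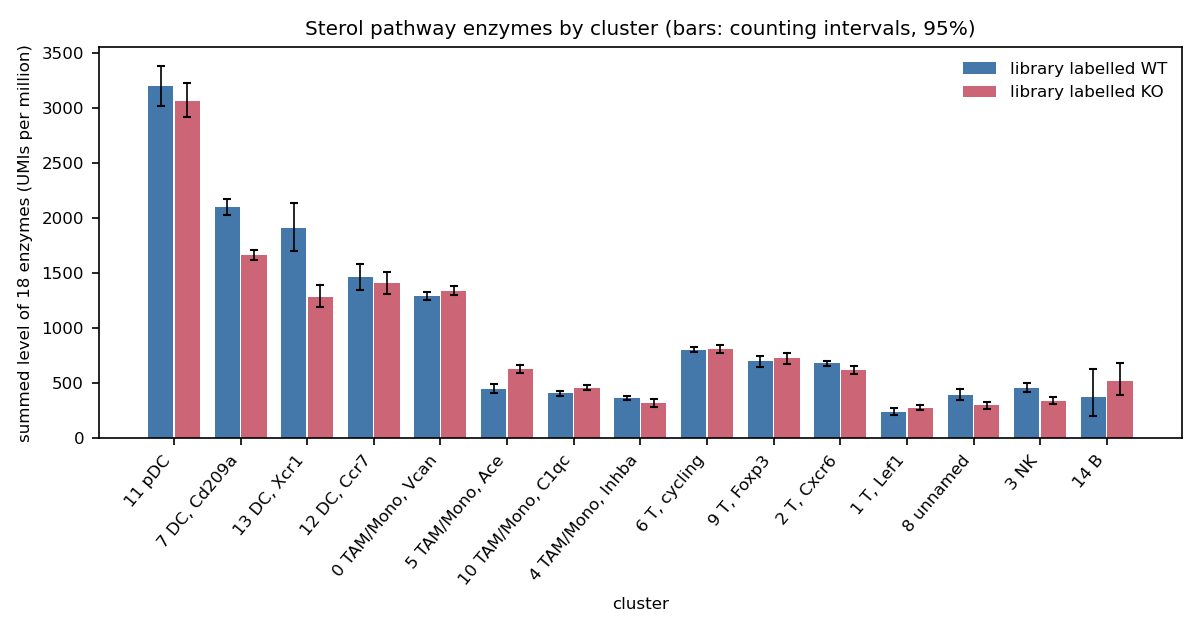
Summed level of the 18 sterol enzymes (y axis, CPM) in 15 clusters (x axis) of the WT-labelled library and the KO-labelled library; bars are levels and whiskers 95% Poisson intervals. Both libraries run from above 3000 in pDCs to below 300 in the T cells of cluster 1, and differences between the libraries are small beside those between clusters.

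The regulators did not all follow the enzymes. Likeness was measured as Pearson's r of log2(CPM + 1) with the log2 summed level of the other enzymes over 13 clusters in both libraries, 26 points that share libraries and depth, and is a description only. *Srebf2*, which encodes the transcription factor of the pathway, had an r of 0.94, close to *Fdps* (0.98), *Hmgcs1* (0.96) and *Sqle* (0.95). *Insig1*, itself a target of SREBP, had 0.85, and *Stard4*, a cytosolic sterol carrier, 0.64. *Srebf1*, whose product turns on fatty acid genes, had 0.23. *Insig2* had −0.48, *Abca1* −0.47 and *Abcg1* −0.35. *Dhcr7* (0.53) and *Ebp* (0.63) were the enzymes least like the rest. Outside the 31 genes, *Bloc1s2*, a subunit of a lysosomal complex, was among the most alike of the genes with at least 1000 UMIs (0.87).

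*Insig1* and *Insig2* encode proteins with the same role, and their levels peaked in different clusters. *Insig1* had 178 and 202 CPM in pDCs, 91.7 and 99.4 in cluster 0, and 23.5 and 35.5 in cluster 4. *Insig2* had 10.8 and 9.91 CPM in pDCs, from 4 and 5 UMIs, 23.3 and 24.3 in cluster 0, and 65.3 and 47.7 in cluster 4, its highest level in both libraries. Within T cells *Insig2* was past 1.5-fold higher in cluster 2 than in cluster 1 in both libraries (13.6 and 29.2 CPM, and 13.7 and 24.8). *Insig1* was past it in the WT-labelled library alone (14.7 and 26.3 CPM, a log2 ratio of 0.80, 0.04 to 1.76), with 16 and 23.7 CPM and a ratio of 0.56 (−0.11 to 1.26) in the KO-labelled library. Their upstream stretches, printed above, hold 1 NF-Y box for *Insig1* and 2 for *Insig2*.

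Fatty acid genes were lower and flatter. Their summed level was 183 CPM (142 to 232) and 170 (136 to 210) in pDCs, 149 and 140 in DCs, 110 and 102 in TAM/Mono cells, 90.5 and 89.6 in T cells, and 80.1 and 79.4 in NK cells. *Acly*, which makes cytosolic acetyl-CoA from citrate, was the most abundant of them in T cells, NK cells, TAM/Mono cells and DCs, at 84.6 and 61.9 CPM in cluster 0 and 28.3 and 33.3 in cluster 1. *Fasn*, the fatty acid synthase, was highest in cluster 7 (21.1 and 20.8 CPM) and near that level in NK cells (21.1 and 19.6), and had 1.68 and 3.67 CPM in cluster 4. *Scd2*, a desaturase, had 40.4 and 65.4 CPM in pDCs. *Fads1* and *Fads2* desaturate polyunsaturated fatty acids. *Fads1* was highest in pDCs (29.6 and 21.8 CPM) and cluster 10 (29.3 and 26.4), the TAM/Mono cells led by *Gas6*, *Ccl8* and *C1qc*. *Fads2* had 29.6 and 17.8 CPM in pDCs and 11 and 9 UMIs there, out of 25 and 33 in all cells, and 0 UMIs in NK cells of either library. *Acaca*, the carboxylase that makes malonyl-CoA, peaked at 11.5 CPM in cluster 7 in the WT-labelled library and at 11.9 in pDCs in the KO-labelled library.

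Within T cells, cluster 1 stood apart from the other clusters in its low level of the enzymes. Cluster 1, with naive T cell genes among its leaders, had 239 CPM (209 to 272) and 274 (252 to 297). Cluster 2, led by *Adgrg1*, *Cxcr6* and *Lag3* and with *Cd8a* among its leaders, had 680 and 617 CPM, cluster 9, led by *Foxp3* and *Cd4*, 699 and 724, and cluster 6, the cycling cells led by *Hist1h2ap* and *Nusap1*, 801 and 807. Cluster 2 exceeded cluster 1 by log2 ratios of 1.5 (1.31 to 1.71) and 1.17 (1.03 to 1.32), with 11 of the 15 enzymes that had at least 100 UMIs past 1.5-fold in both libraries, beside 23.8% of all genes. *Idi1* went from 6.29 CPM in cluster 1 to 50.8 in cluster 2 in the WT-labelled library and from 10.5 to 33.6 in the KO-labelled library. *Stard4* went from 7.34 to 38.2 and from 11.4 to 34.7 CPM. *Ebp* lay at the fold itself in the WT-labelled library, with 61.9 and 93.5 CPM, and was not counted because the 0.5 UMIs added to each side brought it just under. The cells of cluster 1 were shallow, with medians of 4734 and 4587 UMIs against 12044 and 8636 in cluster 2 and 19473 and 20133.5 in cluster 6, and the part of depth in these differences was not tested.

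Cycling T cells exceeded the other T cell clusters by log2 ratios of 0.37 (0.31 to 0.43) and 0.72 (0.63 to 0.81). Against cluster 2 alone the ratios were 0.24 (0.17 to 0.30) and 0.39 (0.28 to 0.50), and 0 of 17 enzymes passed 1.5-fold in both libraries, where 8.57% of all genes did. *Scd2* alone of the 26 genes with at least 100 UMIs passed it, with 14.4 CPM in cluster 2 and 22.1 in cluster 6 in the WT-labelled library, and 12.1 and 22.4 in the KO-labelled library.

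TAM/Mono cells held both arms of sterol handling, in different clusters. Cluster 0 had 1290 CPM of the 18 enzymes (1257 to 1324) in the WT-labelled library and 1340 (1301 to 1378) in the KO-labelled library, close to the DCs of cluster 12 (1461 and 1409). Cluster 4 had 364 and 317 CPM, cluster 10 had 409 and 459, and cluster 5, led by *Serpinb10*, *Ace* and *Treml4*, had 451 and 629. Cluster 0 exceeded cluster 4 by log2 ratios of 1.83 (1.73 to 1.92) and 2.08 (1.90 to 2.27), and the 16 enzymes with at least 100 UMIs over both clusters were past 1.5-fold in both libraries, beside 18.4% of all genes. The minimum applies to the sum of the clusters compared, so a gene can pass it through the cluster where it is high, as *Dhcr7* did with 71 and 42 UMIs in cluster 0 and 10 and 3 in cluster 4, and the count is a description. *Lss* (11.7 and 8.59 CPM in cluster 0, 1.68 and 0 in cluster 4) and *Tm7sf2* (4.49 and 5.16, 2.68 and 2.45) did not reach it. In the other direction *Insig2*, *Abca1* and *Abcg1* were past the fold, beside 8.18% of all genes. *Abca1*, which loads cholesterol onto lipid-poor apolipoproteins, had 57.3 CPM (49 to 66.6) and 28.1 (17.8 to 42.2) in cluster 4 and 53.3 and 45.2 in cluster 10. It had 7.4 and 2.86 CPM in cluster 0. *Abcg1*, which exports sterol to mature lipoprotein particles, had 69.4 and 86.8 CPM in cluster 4, 71.8 and 45.9 in cluster 10, and 30.3 and 27.5 in cluster 0. Cluster 5 was low in both, with 40.7 and 18.4 CPM of the 2 pumps summed, against 37.7 and 30.4 in cluster 0, 127 and 115 in cluster 4, and 125 and 91.1 in cluster 10. Cells of cluster 10 were the deepest of the class, with medians of 18556 and 19739 UMIs, and had low enzymes.

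**Figure D4:**
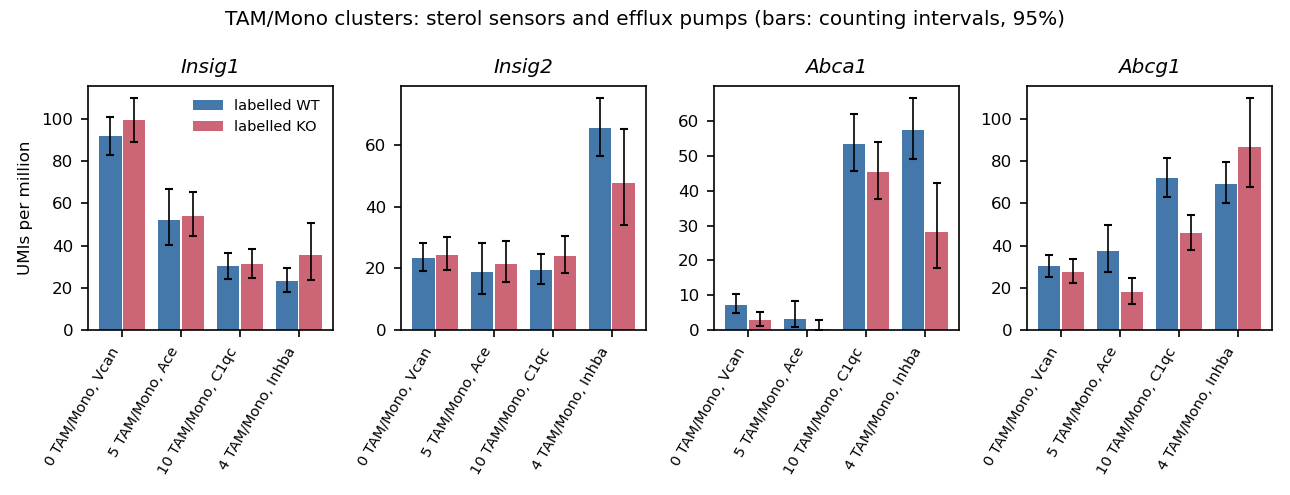
Levels (y axis, CPM, a scale of its own for each gene) of *Insig1*, *Insig2*, *Abca1* and *Abcg1* in the 4 TAM/Mono clusters (x axis) of both libraries; whiskers are 95% Poisson intervals. *Insig1* is highest in the *Vcan* cluster, *Insig2* in the *Inhba* cluster, and the pumps in the *C1qc* and *Inhba* clusters.

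The study compared the genotypes, and for these genes the differences between the libraries were mostly smaller than 1.5-fold. Over all cells the enzymes had 823 CPM in the WT-labelled library and 892 in the KO-labelled library, a log2 ratio of 0.12 (0.09 to 0.14). The classes did not all run this way: the ratio was −0.26 (−0.32 to −0.21) in T cells, −0.42 (−0.61 to −0.23) in NK cells, −0.31 (−0.36 to −0.25) in DCs, 0.17 (0.13 to 0.22) in TAM/Mono cells and −0.06 (−0.17 to 0.05) in pDCs. DCs, with their high level, were 140 of 2392 cells in the WT-labelled library and 321 of 2630 in the KO-labelled library.

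**Figure D5:**
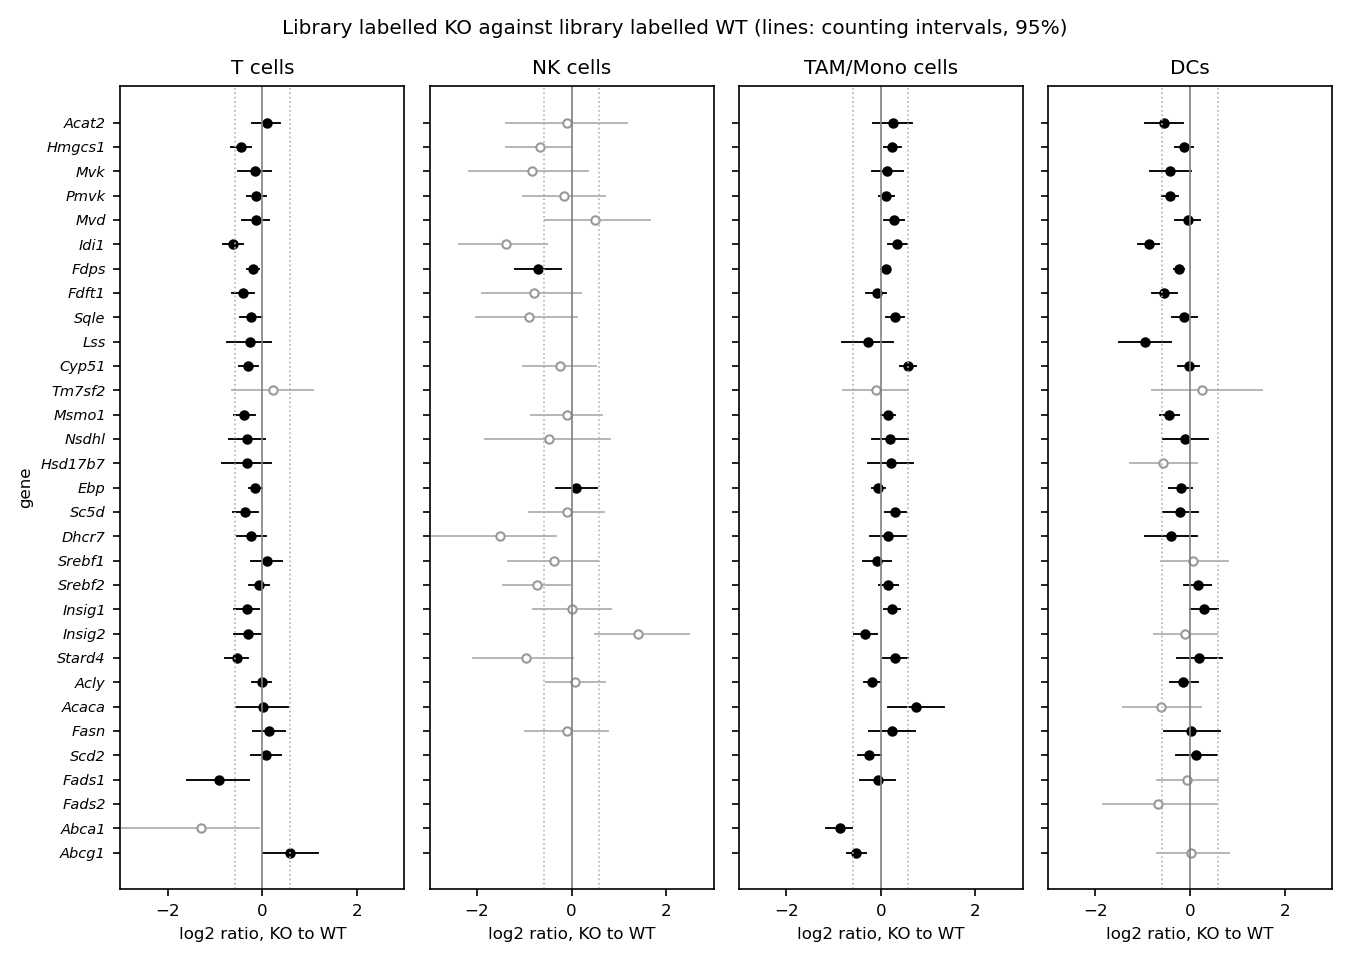
Log2 ratio of the KO-labelled library to the WT-labelled library (x axis) for each gene (y axis) in 4 classes; lines are exact 95% intervals of counting error, black marks genes with at least 100 UMIs in the class, grey those with 20 to 99, and dotted lines mark 1.5-fold. Most black points lie left of 0 in T cells and DCs and right of 0 in TAM/Mono cells, and few lie beyond the dotted lines.

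In T cells, 16 of the 17 enzymes with at least 100 UMIs were below 0, with a median log2 ratio of −0.27, where the median of all 8353 genes was −0.07. With that median most of all genes were below 0 too, and their share was not counted. *Acat2* was the enzyme above 0, at 0.09 (−0.21 to 0.38). Of the 28 genes with at least 100 UMIs, 2 were lower past 1.5-fold (5.67% of all genes were) and 1 was higher (4.39%). *Idi1* had 54.3 CPM in the WT-labelled library and 35.2 in the KO-labelled library, a log2 ratio of −0.62 (−0.84 to −0.41). *Fads1* had 7.02 and 3.7 CPM, from 88 and 27 UMIs, a ratio of −0.91 (−1.60 to −0.29). *Abcg1* had 4.55 and 6.85 CPM, from 57 and 50 UMIs, a ratio of 0.59 (0.01 to 1.17). *Stard4* (40.1 and 27.6 CPM) and *Hmgcs1* (50.2 and 36.6) were lower within the fold, while *Srebf2* (43.4 and 41.4) and *Acly* (43.7 and 43.5) were nearly level. The mix of T cells differed between the libraries: cluster 1, with the least enzymes, was 157 of 926 T cells in the WT-labelled library and 417 of 878 in the KO-labelled library, and the cycling cluster 6 was 271 and 112. Standardised to 1 mix of clusters, the ratio of the summed enzymes was −0.02, that of *Idi1* −0.26 and that of *Abcg1* −0.17. With 1 mix of depths *Idi1* had −0.26 and *Abcg1* 0.13. Within clusters the ratio was 0.19 (−0.03 to 0.42) in cluster 1, −0.14 (−0.24 to −0.04) in cluster 2, 0.01 (−0.07 to 0.09) in cluster 6 and 0.05 (−0.10 to 0.20) in cluster 9, so that 3 of the 4 intervals included 0. *Abca1*, named after its values were seen, had only 27 and 6 UMIs in T cells.

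In NK cells, 2 of the 31 genes had at least 100 UMIs. *Fdps* had 80.1 and 49.1 CPM, from 91 and 60 UMIs, a log2 ratio of −0.70 (−1.20 to −0.22), and was past 1.5-fold, as were 4.04% of the 2577 genes with at least 100 UMIs. *Ebp* had 75.7 and 81 CPM, a ratio of 0.10 (−0.33 to 0.53), so that 0 genes were higher past the fold (3.18% of all genes were). The ratio of *Fdps* was within the fold when every cell was weighted alike (−0.52) and with 1 mix of depths (−0.32). The other 29 genes fell below 100 UMIs, and those given here were named after their values were seen. *Idi1* had 37 and 15 UMIs and *Dhcr7* 22 and 8, with intervals of −2.38 to −0.51 and −2.94 to −0.34 for the log2 ratio. *Insig2* had 13 and 38 UMIs, or 11.4 and 31.1 CPM, a ratio of 1.41 (0.50 to 2.48). The neutrophil marker list had 136 CPM in NK cells of the WT-labelled library (9 of 10 markers detected) and 21.3 in the KO-labelled library (5 of 10). The cycling list had 751 and 495 CPM there, the TAM/Mono list 1996 and 1570 and the B cell list 2.64 and 29.5. The part of these lists in the ratios was not tested.

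In TAM/Mono cells, 14 of the 17 enzymes with at least 100 UMIs were above 0, with a median of 0.20, where the median of all 8335 genes was 0.06. Most of all genes were thus above 0 as well, and their share was not counted. Of 29 genes, 1 was higher past 1.5-fold (4.28% of all genes were) and 1 lower (4.82%). *Acaca* was the higher one, with 3.78 and 6.34 CPM from 45 and 57 UMIs, a ratio of 0.74 (0.16 to 1.34). With 1 mix of clusters its ratio was 0.54, within the fold, and without cells that held at least 3 UMIs of the melanoma marker list it fell short of 100 UMIs. *Cyp51* lay just inside the fold, with 50.4 and 75.1 CPM and a ratio of 0.57 (0.41 to 0.74), and *Idi1*, lower in T cells, DCs and NK cells, had 37.8 and 48.4 CPM here, a ratio of 0.35 (0.16 to 0.55). Cluster 5 had the largest ratio of the summed enzymes, 0.48 (0.34 to 0.63), while clusters 0 (0.05, −0.00 to 0.11) and 4 (−0.20, −0.40 to −0.00) lay close to 0 or below it, and cluster 10 had 0.17 (0.05 to 0.28). With 1 mix of clusters the ratio of the class was 0.10, and among cells between the quartiles of depth it was 0.58.

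*Abca1* was the gene lower past the fold in TAM/Mono cells, with 32 CPM from 381 UMIs in the WT-labelled library and 17.5 from 157 UMIs in the KO-labelled library, a ratio of −0.87 (−1.15 to −0.60). *Abcg1* had 52.1 and 36.4 CPM, a ratio of −0.52 (−0.72 to −0.32). Within clusters *Abca1* had ratios of −1.32 (−2.56 to −0.31) in cluster 0, −1.0 (−1.72 to −0.39) in cluster 4 and −0.24 (−0.58 to 0.10) in cluster 10. *Abcg1* was lower in clusters 5 (−1.06, −1.74 to −0.40) and 10 (−0.64, −0.97 to −0.33) and not in cluster 4 (0.33, −0.09 to 0.72). Cluster 4, where both pumps are high, was 307 of 970 TAM/Mono cells in the WT-labelled library and 105 of 833 in the KO-labelled library. With 1 mix of clusters the ratios were −0.59 for *Abca1* and −0.26 for *Abcg1*. Over the settings tried *Abca1* ran from −0.59 to −1.89, the latter among cells between the quartiles of depth. Without cells that held at least 3 UMIs of the melanoma marker list it was −1.5, and which cells made the RNA of that list was not tested.

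In DCs, 16 of the 16 enzymes with at least 100 UMIs were below 0, with a median of −0.32, where the median of all 5424 genes was −0.07. Most of all genes were thus below 0 as well, and their share was not counted. Of 22 genes, 2 were lower past 1.5-fold (6.54% of all genes were) and 0 higher (2.64%). *Idi1* had 155 and 84.8 CPM, a ratio of −0.87 (−1.09 to −0.66). *Lss*, the lanosterol synthase, had 27 and 13.9 CPM from 57 and 62 UMIs, a ratio of −0.96 (−1.50 to −0.41). *Acat2* (42.6 and 29 CPM), *Fdft1* (94.8 and 65.1) and *Pmvk* (222 and 165) were lower within the fold, while *Cyp51* (119 and 117) and *Mvd* (86.2 and 83.5) were nearly level. Of the regulators, *Srebf2* had 70.6 and 78.8 CPM, a ratio of 0.16 (−0.12 to 0.44), *Insig1* 61.1 and 75.2 CPM, a ratio of 0.30 (0.00 to 0.60), and *Stard4* 26.1 and 29.9 CPM, a ratio of 0.19 (−0.27 to 0.68). *Srebf1* and *Insig2* had under 100 UMIs in DCs. The ratio of the summed enzymes was −0.33 (−0.40 to −0.27) in cluster 7, −0.57 (−0.77 to −0.37) in cluster 13, of 8 and 25 cells, and −0.05 (−0.21 to 0.11) in cluster 12. Cluster 13 had 11 of 11 cycling markers detected, with *Mki67* at 291 and 267 CPM. It held *Xcr1*, one of its leading genes, at 75.9 and 57 CPM and *Cd209a* at 202 and 436.

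Cluster 7 held cells with markers of 2 kinds of DC, and they were read apart after the data had been seen. Cells with more UMIs of *Cd209a*, *Mgl2* and *Clec10a* than of *Xcr1*, *Clec9a*, *Naaa* and *Wdfy4* numbered 53 and 163, and had 1914 and 1763 CPM of the enzymes, a ratio of −0.12 (−0.21 to −0.03). Cells with the opposite balance, the markers of cross-presenting cDC1, numbered 44 and 81, and had 2388 and 1441 CPM, a ratio of −0.73 (−0.83 to −0.63). *Fdps* had 522 and 498 CPM in the former and 797 and 532 in the latter. *Hmgcs1* had 155 and 152 CPM in the former and 210 and 115 in the latter. *Idi1* was lower in both, with ratios of −0.63 (−0.97 to −0.28) and −1.12 (−1.56 to −0.68). Whether the ratios of the 2 kinds differ beyond the spread between animals was not tested, since each genotype is 1 library.

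In pDCs the summed enzymes were close in the 2 libraries. *Hmgcs1* (267 and 311 CPM), *Msmo1* (358 and 363) and *Srebf2* (91.6 and 91.1) had ratios whose intervals included 0, while *Fdps*, with 1048 and 836 CPM, had a ratio of −0.33 (−0.53 to −0.12). *Stard4*, under 100 UMIs and named after its values were seen, had 53.9 and 21.8 CPM from 20 and 11 UMIs, a ratio of −1.28 (−2.51 to −0.18).

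The relation of enzyme level to depth differed between classes. The cells of each class were split by depth into 4 bins of near-equal size, and from the shallowest to the deepest bin T cells had 367, 461, 667 and 778 CPM of the enzymes in the WT-labelled library and 336, 338, 619 and 793 in the KO-labelled library. At medians of 11093 and 5250.5 UMIs per T cell, standardising to 1 mix of depths gave a ratio of −0.05. Clusters of a class differed in depth (medians of 4734 and 4587 UMIs in cluster 1, 19473 and 20133.5 in cluster 6). Depth and cluster mix therefore cannot be told apart in T cells and TAM/Mono cells. NK cells had 583 and 425 CPM in the deepest bin and 297 in both libraries in the second. DCs, whose medians were close (13780 and 13118 UMIs), were lower in the KO-labelled library in all 4 bins, for example 2182 and 1784 CPM in the shallowest and 1675 and 1331 in the deepest. TAM/Mono cells were higher in the KO-labelled library in the first 3 bins (372 and 602, 528 and 901, 793 and 1176 CPM) and lower in the deepest (835 and 704).

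Cells with a UMI of any of the 18 enzymes were also counted. Classes were thinned to different depths, so the shares below compare the libraries within a class and not the classes. After each cell was thinned to the number of UMIs set for its class, 81.4% (78.8 to 83.9%) of T cells in the WT-labelled library and 70.3% (66.9 to 73.6%) in the KO-labelled library had one (3600 UMIs; 15 and 137 shallower cells left out). Without thinning the shares were 91.7% and 76.3%. In NK cells, thinned to 3200 UMIs, they were 64.9% (57.5 to 71.7%) and 62.8% (56.1 to 69.1%), with 0 and 43 cells left out. In TAM/Mono cells, at 5700 UMIs, they were 84.2% (81.6 to 86.5%) and 88.3% (85.7 to 90.5%), with 74 and 99 left out. In DCs and pDCs, thinned to 8400 and 5600 UMIs, they were between 99.3% and 100%. No class is known to lack these enzymes, so no background share could be given, and the part of free RNA in the droplets was not tested.

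Of 38 other genes of sterol and fatty acid handling, 27 had at least 100 UMIs in T cells, 33 in TAM/Mono cells, 23 in DCs and 6 in NK cells, and 2, 2, 0 and 0 of them were higher and 1, 2, 1 and 0 lower in the KO-labelled library past 1.5-fold. Of all genes, 4.39%, 4.28%, 2.64% and 3.18% were higher and 5.67%, 4.82%, 6.54% and 4.04% lower in these classes. In TAM/Mono cells *Apoe*, the apolipoprotein that accepts cellular cholesterol, was higher, with 839 and 1943 CPM and a ratio of 1.21 (1.18 to 1.25), and was also one of the markers that named the class. *Nr1h3*, which encodes the receptor LXRα, was lower there, with 34.4 and 16.6 CPM and a ratio of −1.05 (−1.33 to −0.78). The lipogenic cofactor *Mid1ip1* (22.7 and 35.7 CPM) was higher and the reductase *Cyb5r3* (109 and 71.1) lower. In T cells *Apoe* (31.4 and 48.8 CPM) and *Acss2* (4.23 and 7.26), an acetyl-CoA synthetase, were higher, and *Lipa* (20.9 and 13), the lysosomal lipase, was lower. Within the fold, *Apoe* had ratios of 0.56 (−0.04 to 1.18) in NK cells and 0.54 (0.09 to 1.04) in DCs. Its levels there (34.3 and 50.7 CPM, and 24.2 and 35.5) were far below those of TAM/Mono cells. The part of TAM/Mono RNA in these values was not tested. In DCs the corepressor *Ncor1* was lower (102 and 59.7 CPM). *Ncor1* (112 and 87.3 CPM) and the electron carrier *Fdx1* (75.5 and 60.7) were among the 3 most abundant genes of the list in T cells, *Por*, the electron donor of CYP51 and SQLE, in TAM/Mono cells (140 and 125), and the elongase *Elovl1* in DCs (86.7 and 86.4) and, with *Ncor1* (128 and 99), in NK cells (65.1 and 69.5). *Npc2*, the lysosomal sterol carrier, was among the most abundant genes of this list in all 4 classes, from 335 CPM in NK cells (KO-labelled library) to 1802 in TAM/Mono cells (WT-labelled library), and its log2 ratio stayed between −0.24 and 0.04.

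Marker lists named for other cells or for cycling moved with the libraries in the classes compared. The neutrophil list, with 10 of 10 markers detected in both libraries in T cells, TAM/Mono cells and DCs, had 279 and 95 CPM in T cells, 625 and 221 in TAM/Mono cells and 280 and 158 in DCs. In pDCs it had 159 and 9.91 CPM, with 6 and 4 markers detected. The melanoma list had 152 and 200 CPM in T cells, 259 and 197 in TAM/Mono cells, 17.5 and 13.2 in DCs, 9.68 and 14.7 in NK cells and 26.9 and 37.6 in pDCs. In TAM/Mono cells *Pmel* gave 48 and 26 of its 3092 and 1769 UMIs. Most thus came from its other markers, *Gpnmb* and *Mitf* among the genes listed. Whether TAM/Mono cells themselves made that RNA was not tested. The T cell list had 287 and 178 CPM in TAM/Mono cells and 570 and 500 in DCs. The TAM/Mono list had 2152 and 2230 CPM in T cells and 7263 and 6245 in DCs. The B cell list had 13.8 and 42.2 CPM in TAM/Mono cells and 11.1 and 23.2 in T cells. The cycling list had 3642 and 2520 CPM in T cells, 773 and 994 in TAM/Mono cells and 1394 and 1566 in DCs. Among DC lists, that of *Cd209a* DCs had 8.46 and 27.8 CPM in T cells and 921 and 1370 in DCs, and that of mature DCs had 1070 and 661 in DCs. Their part in the differences between the libraries was not tested. Without cells that held at least 3 UMIs of the melanoma list, 0 genes were higher past 1.5-fold in TAM/Mono cells and in T cells.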

How the data were processed

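Live CD45.2+ tumor-infiltrating cells of each genotype (10 combined tumors, 10000 cells loaded) were profiled as 1 Chromium 3′ V2 library. The submitters' processing notes name Cell Ranger and mm10, without a version. Cells under 300 UMIs, under 100 genes or over 5% mitochondrial were removed by the authors, and 0 cells in the table were beyond these limits. The deposited values are natural log values, ln(1 + UMIs scaled to 10000 per cell), although the table is described as raw counts. Dividing by each cell's smallest nonzero value gave UMIs back as whole numbers within 0.01 in 100% of the nonzero entries and in 5022 of 5022 cells, and they were summed per class or cluster and library. The log2 ratios have 0.5 UMIs added to each side.

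Cells were clustered with Seurat 5.3.0 (R 4.3.3, resolution 0.8, 13 principal components, 594 variable genes, with 5 pathway genes left out). A class was named from at least 3 markers found in at least 10% of a cluster's cells, unless its 10 leading genes (each in at least 25% of cells) went against the name. No doublet caller was run and all cells were kept. Shares were computed after thinning cells to 1 number of UMIs per class.

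Statistics used Python 3.11.15, numpy 2.4.6 and scipy 1.17.1 and were tested on simulated data. Levels carry exact Poisson intervals, ratios exact conditional binomial intervals and shares Clopper-Pearson intervals, all at 95% and for counting error only. With 1 library per genotype there was no test and no p-value, and genes with at least 100 UMIs in a class were counted past 1.5-fold. Depth was 28801253 and 23702018 UMIs in the WT- and KO-labelled libraries. All 31 genes are accounted for by role, and of the 38 other pathway genes those past 1.5-fold or among the 3 of highest level were named. The genes, lists and comparisons were chosen with earlier results of these data known. Gene positions came from GENCODE M21 and upstream sequences from RefSeq, both on GRCm38. How reads of overlapping genes and of either strand were counted is not given in the sources used here. Results for some genes are not reported here.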

Additional observations from a re-analysis of the deposited data

How the results depend on the processing

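Of 821 log2 ratios of single genes recomputed over the 12 alternatives that gave them (of 16), 759 stayed within their counting interval and 61 left it. The remaining 1, past 1.5-fold in the main setting, changed sign, and sign changes of smaller ratios were not counted apart. Values are log2 ratios (KO- over WT-labelled library) in the order T cells, TAM/Mono cells, DCs unless a class is named, and counts are genes past 1.5-fold. With 1 cluster mix, *Abcg1* in T cells changed sign to −0.17, the summed enzymes came to −0.02 and 0.10 in T and TAM/Mono cells (medians −0.03 and 0.10), with 0 genes higher in either and 1 lower in T cells. Median-ratio scaling gave sums of −0.20, 0.12 and −0.23, medians of −0.21, 0.15 and −0.25, and 1 lower in T cells. Scaling without ribosomal and mitochondrial genes gave sums of −0.18, 0.22 and −0.24, medians of −0.19, 0.25 and −0.26, 2 higher in TAM/Mono cells, 1 lower in T cells, cycling ratios of 0.28 (WT-labelled) and 0.55 (KO-labelled), and levels of 1116 and 983 CPM in T cells, 927 and 1081 in TAM/Mono cells, 2686 and 2269 in DCs, 729 and 553 in NK cells, 4575 and 4455 in pDCs and 697 and 884 in B cells, since the total is smaller. Weighting every cell alike gave sums of −0.46 and 0.30 and medians of −0.41 and 0.27 in T and TAM/Mono cells, 2 higher in TAM/Mono cells, 6, 2 and 0 lower in T, TAM/Mono and NK cells, cycling ratios of 0.56 and 1.01, and levels of 616 and 448 CPM in T cells, 2065 and 1640 in DCs, 670 (WT-labelled) in TAM/Mono cells, 385 (WT-labelled) in NK cells and 375 (KO-labelled) in B cells. Without cells holding Cd3 and myeloid UMIs (508 and 282 cells), sums were −0.37 in T cells and −0.39 in DCs, the T cell median −0.36, with 0 higher and 4 lower in T cells, 1 higher in DCs, cycling ratios of 0.54 and 0.93, and levels of 634 and 492 CPM in T cells, 2138 and 1633 in DCs and 349 (KO-labelled) in B cells. Without cycling clusters, T cells gave −0.34 (median −0.33) and 0 higher. Resolution 1.2 gave 4 lower in DCs and levels of 691 and 570 CPM in T cells and 2037 (WT-labelled) in DCs. With all variable genes, 0 were higher in T cells and 2 in TAM/Mono cells. A minimum of 50 UMIs gave a DC median of −0.41 and 1 higher and 4 lower in NK cells, as other genes entered the count. A minimum of 300 UMIs gave a DC median of −0.22, 0 higher in T and TAM/Mono cells, and 1 lower in T cells and in DCs, as genes left the count. Unthinned shares were 91.7% and 76.3% in T cells, 77.3% and 71.4% in NK cells and 90.7% and 92.1% in TAM/Mono cells.

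The next alternatives were chosen after seeing the data. Cells between the quartiles of depth gave sums of −0.35, 0.58 and −0.37, medians of −0.34 and 0.63 in T and TAM/Mono cells, 0 higher in T cells, and 9 higher and 2 lower in TAM/Mono cells. With 1 depth mix, sums were −0.05 and 0.24 and medians −0.05 and 0.29 in T and TAM/Mono cells, with 0 and 2 higher, and 1 lower in T cells and 0 in NK cells. With cluster 8, T cells gave −0.33 (median −0.34). Without cells holding at least 3 UMIs of the melanoma list (267 and 145 cells), the TAM/Mono median was 0.13, with 0 higher in T and TAM/Mono cells. Against cluster 2 alone, cycling T cells gave 0.24 and 0.39. Apart from what the text states, the cause of these moves was not tested. No paired analysis was possible because each genotype is 1 library. The spread between animals is unknown, and depth limits NK cells, where 2 of the 31 genes had at least 100 UMIs.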
